A study of Rattus norvegicus with 6 samples.

Results

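The genes described here are 10 hepatocyte genes of the acute-phase response: the pentraxins Crp and Apcs, haptoglobin (Hp), haemopexin (Hpx), orosomucoid 1 (Orm1), alpha-2-macroglobulin (A2m), lipocalin 2 (Lcn2), hepcidin (Hamp), and the signalling genes Stat3 and Socs3. They were chosen by symbol, and all 10 were found among the 15037 genes with a named probe set. Expression was measured on Affymetrix arrays in primary hepatocytes of male Sprague-Dawley rats aged 8 weeks. TMAO cells (n = 3) received 50 µM trimethylamine N-oxide, an oxidation product that the liver makes from a gut microbial amine, for 30 h, and Control cells (n = 3) were left untreated. Both groups grew on rat tail collagen I in William's E medium with 10% foetal bovine serum, and the protocols name no added cytokine. The labels call the samples biological repeats without saying which animals or isolations they came from, so p-values measure only the spread between these arrays. RNA came from whole cultures, in which fewer cells of a type and less RNA per cell cannot be told apart.

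The acute-phase response is the liver's change in plasma protein output during inflammation. Interleukin 6 (IL-6) binds its receptor and the shared subunit gp130, JAK kinases phosphorylate STAT3, and STAT3 enters the nucleus and drives acute-phase genes, together with C/EBP factors, glucocorticoid and IL-1 signals. Socs3 is itself a STAT3 target, and its product binds gp130 and the JAKs and shuts the signal off. The mix of proteins differs between species: A2m is a classical strong responder of the rat, while Crp is a major acute-phase protein in humans and is made at a steady level in rat liver.

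The 250 bases upstream of the annotated start are shown for 3 of the genes, because the Apcs and Crp starts lie 212 kb apart on chromosome 13 and both had lower signal with TMAO, and because the Hamp sequence holds a STAT-type motif. Sequences are from RefSeq (rat build GRCr8), 5′ to 3′ on the gene's strand, with motif matches in capitals: the STAT motif TTCNNNGAA, the same motif with a spacer of 4 bases, the IL-6 response element core CTGGGAA, and the C/EBP motif TTGCNNAA, each searched on both strands.
Hamp, chr1:95300272-95300521, minus strand: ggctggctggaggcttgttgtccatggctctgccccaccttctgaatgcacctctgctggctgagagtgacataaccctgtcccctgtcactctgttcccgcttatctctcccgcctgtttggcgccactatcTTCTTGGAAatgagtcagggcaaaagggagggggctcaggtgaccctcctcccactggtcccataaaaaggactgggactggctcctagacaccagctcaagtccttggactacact
Apcs, chr13:87906509-87906758, minus strand: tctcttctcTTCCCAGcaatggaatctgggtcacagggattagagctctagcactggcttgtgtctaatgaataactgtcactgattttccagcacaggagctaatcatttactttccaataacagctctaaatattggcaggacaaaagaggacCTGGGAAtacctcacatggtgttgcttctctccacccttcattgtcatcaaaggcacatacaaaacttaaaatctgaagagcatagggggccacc
Crp, chr13:87693812-87694061, plus strand: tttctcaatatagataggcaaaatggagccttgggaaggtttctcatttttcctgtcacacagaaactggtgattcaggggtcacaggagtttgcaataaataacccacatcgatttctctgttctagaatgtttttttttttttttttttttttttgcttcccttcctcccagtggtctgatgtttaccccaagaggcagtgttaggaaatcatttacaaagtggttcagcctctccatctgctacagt
The table held such a window for 8 of the 10 genes, not for Hp or A2m. The Hamp match to TTCNNNGAA lay at bases -117 to -109 from the start. Apcs had CTGGGAA at -95 to -89 and its reverse complement at -241 to -235. Crp had no match to the 4 motifs. Among the others, Orm1 and Hpx had 1 C/EBP match each, Lcn2 had 1 C/EBP and 1 CTGGGAA match, and Socs3 and Stat3 had none. The windows of Lcn2, Socs3 and Stat3 do not lie at the outer end of the annotated gene. Matches in them, or their absence, therefore do not describe the bases upstream of that end. Of all 33469 windows of this length, 7.67% held TTCNNNGAA, 6.25% its form with the longer spacer, 9.56% CTGGGAA and 9.22% TTGCNNAA. A match is a description of the letters and not of a bound site.

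Array medians lay between 5.53 and 5.61 on the log2 scale, and the negative control probes had a median of 3.96. TMAO replicate 3 stood apart on the first principal component and had the highest mean labelling control signal (8.02, against at most 7.86 on the other arrays). Of 15 hepatocyte markers, 1 (Cyp2e1) lay less than 1 log2 unit above the negative controls in both groups. The same held for 9 of 10 neutrophil, 11 of 14 endothelial and 8 of 17 macrophage markers. It also held for 9 of 15 stellate cell and fibroblast markers, but for only 2 of 7 cholangiocyte markers. Summed over their list, the stellate cell and fibroblast markers gave 11.76 to 12.03 under TMAO and 11.84 to 12.09 in Control on the log2 scale. Among all genes, 4 of 15037 (0.0266%) passed an adjusted p of 0.05, all of them higher under TMAO.

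None of the 10 genes passed the adjusted threshold in limma, where the lowest adjusted p among them was 0.600, for Socs3. 8 of 10 had a lower mean under TMAO, against 51% of all genes, and their median difference was -0.15 on the log2 scale, against -0.0035 for all genes. Lower means were as frequent among hepatocyte markers (12 of 15) and negative acute-phase proteins (13 of 16), which the liver makes less of in inflammation. At an unadjusted p under 0.05, Socs3, Crp and Apcs were lower and 0 were higher, where 2.48% of all genes were lower. All 3 TMAO arrays lay below all 3 Control arrays for 4 genes (Socs3, Crp, Apcs and Stat3), where 5.33% of all genes did so, and 0 of 10 had every TMAO array above every Control array, where 5.51% of all genes did. None of them, 0 of 10, combined an unadjusted p under 0.05 with a difference of 1.5-fold or more, which 0.658% of all genes did. The 10 genes were picked with results of these arrays known, so these counts are a description. Without Control replicate 3, 5 of 10 had a lower mean with a median of -0.04, and without TMAO replicate 1 it was 6 of 10 with a median of -0.07. Without either of these arrays only 1 gene had an unadjusted p under 0.05. Without TMAO replicate 3 or Control replicate 1 the median was -0.25 or -0.31. The other 6 divided into Hpx, whose signal differed little between arrays, and Hp, Orm1, A2m, Lcn2 and Hamp, whose values went with the replicate number far more than with TMAO.

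**Figure D1:**
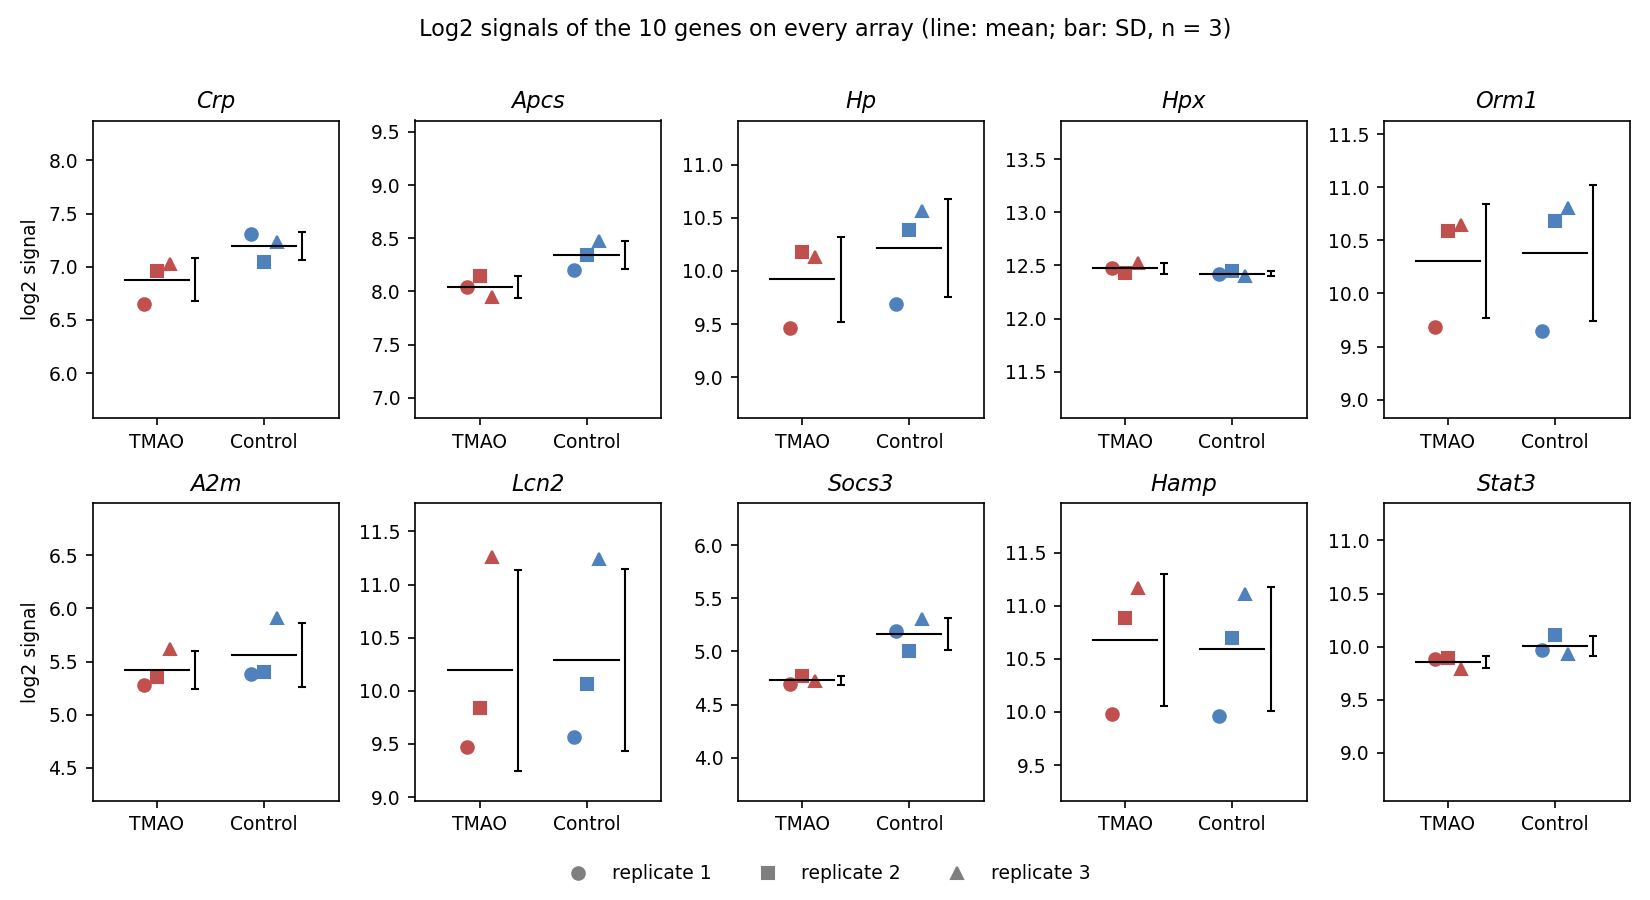
Log2 signal (y axis, the same span in every panel) of each of the 10 genes on the 3 TMAO arrays and the 3 Control arrays, with symbols for the replicate number, lines for means and bars for SD. Socs3, Crp, Apcs and Stat3 have every TMAO array below every Control array, and Lcn2, Hamp and Orm1 show the same arrangement of symbols in both groups.

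Socs3, the feedback inhibitor, had log2 signals of 4.69, 4.77 and 4.72 on TMAO replicates 1, 2 and 3, against 5.19, 5.01 and 5.30 on Control replicates 1, 2 and 3. The groups did not overlap, and the TMAO arrays lay within 0.08 of each other while the Control arrays spanned 0.30. The means were 4.73 ± 0.04 under TMAO and 5.17 ± 0.15 in Control (SD, n = 3 each), a difference of -0.44 ± 0.12 (SE; 95% interval -0.70 to -0.17), or 1.35-fold lower. It ranked 113 of 15037 by p. The signal was dim: its mean lay 0.76 above the median of the negative controls under TMAO and 1.20 above it in Control, so the size of the difference is uncertain. With 1 array left out the difference stayed between -0.52 and -0.37.

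Stat3, which carries the cytokine signal into the nucleus, was a bright probe set and differed little. It had 9.88, 9.89 and 9.79 under TMAO, against 9.97, 10.11 and 9.93 in Control. Every TMAO array lay below every Control array, the closest pair being 9.89 and 9.93. The difference was -0.15 ± 0.11 (95% interval -0.40 to 0.10), with an adjusted p of 0.963 in limma.

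The 2 pentraxins, ring-shaped plasma proteins that bind microbial and damaged-cell surfaces, had lower signal of like size. Crp had 6.65, 6.96 and 7.03 under TMAO, against 7.30, 7.05 and 7.23 in Control. The groups were separated by a gap as narrow as that between 7.03 and 7.05, and TMAO replicate 1 was the lowest array. Its difference was -0.32 ± 0.14 (95% interval -0.62 to -0.01), with an adjusted p of 0.909 in limma, and it came to -0.20 without TMAO replicate 1. Apcs, or serum amyloid P component, had 8.04, 8.14 and 7.94 under TMAO, against 8.21, 8.34 and 8.47 in Control. Its TMAO arrays were again all below the Control arrays, at a difference of -0.30 ± 0.12 (95% interval -0.57 to -0.03; adjusted p of 0.909 in limma). Leaving out 1 array gave -0.36 to -0.23. The neighbouring start sites and the shared direction are the measurements, and whether they are linked was not tested.

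Haptoglobin and haemopexin clear haemoglobin and free haem from plasma. Hp had 9.46, 10.17 and 10.13 under TMAO, against 9.69, 10.39 and 10.57 in Control. Replicate 1 was the lowest array of both groups, and the groups overlapped because Control replicate 1 lay below TMAO replicates 2 and 3. At every number the TMAO array was the lower one (by -0.23, -0.21 and -0.44 for numbers 1, 2 and 3). So it was for 14% of all genes and 46.7% of hepatocyte markers. The group difference was -0.29 ± 0.25, with an adjusted p of 0.968 in limma, and it came to -0.06 without TMAO replicate 1, -0.12 without Control replicate 3 and -0.55 without Control replicate 1. Hpx, with the smallest SE of the 10, had 12.47, 12.42 and 12.52 under TMAO, against 12.42, 12.45 and 12.40 in Control. Its difference was 0.05 ± 0.10 (95% interval -0.18 to 0.28). Its signal was at the 99.99th percentile of all genes, and whether the probe set still responds to a change at that level was not tested.

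Orosomucoid, alpha-2-macroglobulin and lipocalin 2 are a drug-binding plasma glycoprotein, a broad protease inhibitor and a siderophore-binding protein of innate immunity. Orm1 had 9.68, 10.59 and 10.64 under TMAO, against 9.65, 10.69 and 10.81 in Control. Replicate 1 was lowest in both groups, by close to 1 log2 unit, and the group means of 10.30 ± 0.54 under TMAO and 10.38 ± 0.64 in Control (SD, n = 3 each) hardly differed (-0.08 ± 0.33). A2m, the strong rat responder, was dim, with 5.28, 5.36 and 5.62 under TMAO, against 5.38, 5.40 and 5.91 in Control. Replicate 3 was the highest array of both groups, and the difference was -0.14 ± 0.17. Lcn2 had 9.47, 9.84 and 11.26 under TMAO, against 9.57, 10.06 and 11.24 in Control. Its range within a group was 3.45-fold for TMAO and 3.17-fold for Control, at the 99.95th and 99.92nd percentile of all genes, while its group difference was -0.10 ± 0.49 (95% interval -1.21 to 1.02). The signs of these differences rest on single arrays: Orm1 came to 0.23 without TMAO replicate 1, 0.14 without Control replicate 3 and 0.08 without Control replicate 2. Lcn2 came to 0.37 without Control replicate 3, 0.26 without TMAO replicate 1 and 0.08 without TMAO replicate 2, and A2m to 0.03 without Control replicate 3.

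Hepcidin, the liver peptide hormone that closes the iron exporter ferroportin, had 9.98, 10.88 and 11.17 under TMAO, against 9.96, 10.69 and 11.11 in Control. Replicate 1 was lowest and replicate 3 highest in both groups, and same-numbered arrays differed by 0.02, 0.19 and 0.06. The group difference was 0.09 ± 0.34, with a 95% interval of -0.67 to 0.85 and an adjusted p of 0.997 in limma. The sign of the Hamp difference turned without Control replicate 1 (-0.22), TMAO replicate 3 (-0.16) or TMAO replicate 2 (-0.01).

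**Figure D2:**
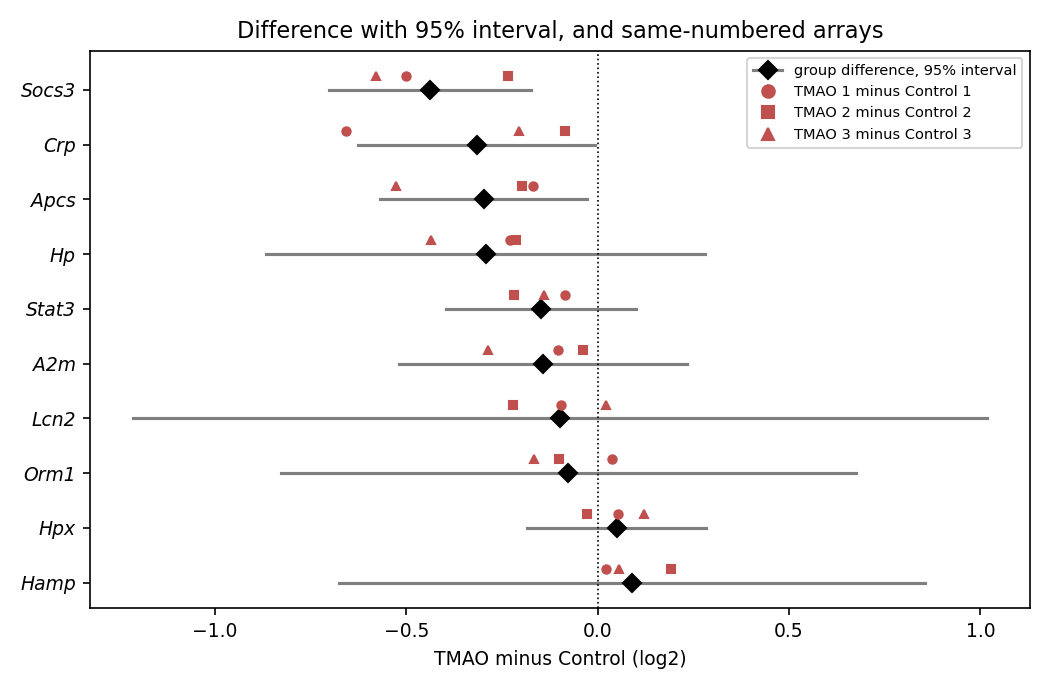
TMAO minus Control (x axis, log2) for the 10 genes: black diamonds are the group differences with 95% intervals from limma, and red symbols are the differences between arrays of the same number. The intervals of Socs3, Crp and Apcs leave out 0, and those of Lcn2, Hamp and Orm1 are wide although their same-numbered differences lie close to 0.

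The arrangement by replicate number was seen in the data and then measured. For each gene the sum of squares over the 6 arrays was divided into shares for replicate number, group and remainder. The number took 99.1% for Lcn2, 98.6% for Hamp and 98.6% for Orm1, and 83.7% for Hp and 82.9% for A2m. The median over all genes was 37.2%, and 4.16% of all genes exceeded 90%, against 3 of the 10 here. Shares as large as those of Lcn2, Hamp and Orm1 were found in 0.173%, 0.293% and 0.299% of all genes. For the 4 genes with separated groups, a property that itself limits what is left for the number, it took 4.55% for Socs3, 8.01% for Apcs, 10.2% for Crp and 34.3% for Stat3, and the group took 85.7%, 70.8%, 55.9% and 58.0%. The labels do not say what a number stands for, and what the arrays of a number share was not tested.

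**Figure D3:**
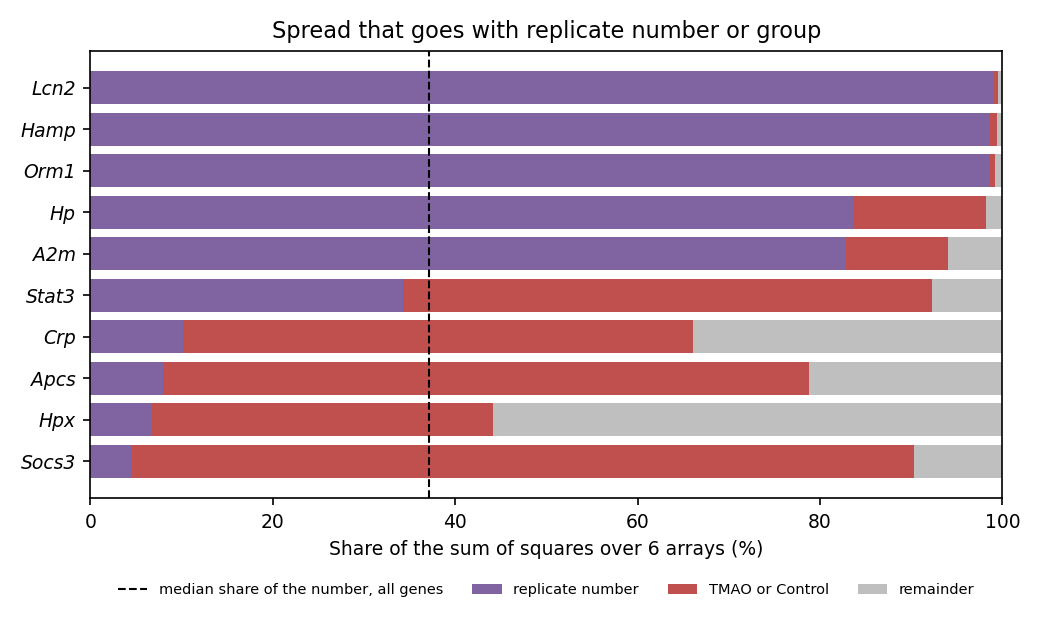
Share of each gene's sum of squares over the 6 arrays (x axis, %) that goes with replicate number, with TMAO or Control, and with the remainder. Lcn2, Hamp, Orm1, Hp and A2m are at 82.9% or more for the number and the other 5 are at or below 34.3%, with the median of all genes at 37.2% (dashed line).

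Large shares for the number were also found in other lists. The number took over 90% for 7 of 15 hepatocyte markers, 5 of 28 other acute-phase proteins and 4 of 16 negative acute-phase proteins. Asgr1, a hepatocyte lectin receptor picked out after its values were seen, had 7.99, 8.68 and 9.13 under TMAO, against 7.96, 8.88 and 9.04 in Control. Saa4, a serum amyloid A gene chosen in the same way, had 6.44, 6.98 and 8.51 under TMAO, against 6.28, 7.39 and 8.92 in Control. For both, as for Lcn2 and Hamp, replicate 1 was lowest and replicate 3 highest in each group. The 28 genes of the IL-6 family and related signalling list and the 13 JAK-STAT inhibitors had 0 above 90%. That is close to the 4.16% of all genes above 90%.

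A list of IL-6 family and related cytokines, receptors and kinases, with other STAT genes and signalling adaptors, had 14 of 28 lower means and a median difference of 0.0017. 0 of 28 passed the adjusted threshold, and at an unadjusted p under 0.05 there was 1 higher (Il6st) and 1 lower (Tyk2), where 3.01% of all genes were higher and 2.48% lower. Il6st, which encodes gp130, had 8.31, 8.24 and 8.66 under TMAO, against 8.19, 8.09 and 7.81 in Control. The groups did not overlap, and the difference was 0.38 ± 0.15 with an adjusted p of 0.909 in limma, and 0.25 without TMAO replicate 3. Tyk2, a JAK-family kinase, differed by -0.27 ± 0.11, also without overlap. Il6r, the IL-6 binding subunit, differed by -0.05 ± 0.15, Jak1 by 0.10 ± 0.11, Jak2 by 0.11 ± 0.13, and the oncostatin M receptor gene Osmr by 0.07 ± 0.13. The signs of Il6r and Osmr turned with 1 array left out. Il6 itself had 3.76, 3.91 and 4.10 under TMAO, against 3.59, 3.61 and 3.87 in Control, values around the negative controls that do not measure its level.

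Of the other inhibitors of JAK-STAT signalling, 4 of 13 had lower means, against 51% of all genes, with a median of 0.06. At an unadjusted p under 0.05 there were 0 in either direction, close to the shares over all genes (2.48% lower and 3.01% higher). Socs1, the closest relative of Socs3 in mode of action, had 4.97, 5.06 and 4.98 under TMAO, against 5.37, 5.15 and 5.11 in Control. Its groups did not overlap, with a difference of -0.21 ± 0.12 (-0.13 without Control replicate 1). Cish, a STAT5 target, had a difference of 0.10 ± 0.11 and Socs2 one of 0.02 ± 0.26, whose sign turned with 1 array left out. Ptpn1, a phosphatase that acts on JAKs, had -0.25 ± 0.13 (-0.15 without TMAO replicate 2).

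Genes known as STAT3 targets had 8 of 26 lower means and a median of 0.07, the opposite sign to the 10 genes. 0 passed the adjusted threshold, and 1 was higher and 1 lower at an unadjusted p under 0.05, close to the shares over all genes (3.01% higher and 2.48% lower). Vegfa, an angiogenic factor that is also a target of other stress pathways, had 7.80, 7.61 and 8.05 under TMAO, against 7.37, 7.17 and 7.17 in Control. Its difference was 0.59 ± 0.14, with no overlap and an adjusted p of 0.535 in limma. Ccnd1, the G1 cyclin, had -0.48 ± 0.16, and the interleukin 4 receptor gene Il4r had -0.24 ± 0.12. Among the liver factors that bind acute-phase promoters, Cebpd differed by 0.33 ± 0.17 (0.12 without TMAO replicate 3) and Cebpb by 0.22 ± 0.13 (0.12 without TMAO replicate 1). Creb3l3, an ER-bound factor known in mouse liver to activate Crp, Apcs and Hamp under ER stress, differed by 0.02 ± 0.16 on the same arrays where the ER chaperone gene Hspa5 differed by 1.02 ± 0.12. The sign of the Creb3l3 value turned with 1 array left out. The arrays measure its RNA and not its activity, and its part in the Crp, Apcs and Hamp values was not tested.

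The remaining acute-phase proteins had 18 of 28 lower means and a median of -0.05. 0 passed the adjusted threshold, and 2 were lower and 1 higher at an unadjusted p under 0.05, where 2.48% of all genes were lower and 3.01% higher. The lower ones were Mbl2, a mannose-binding lectin of the complement system (-0.32 ± 0.11), and Fga, the fibrinogen alpha chain (-0.32 ± 0.13). Fgb, the beta chain, had 9.76, 9.80 and 9.95 under TMAO, against 9.98, 10.03 and 10.32 in Control, with no overlap and a difference of -0.27 ± 0.13. Fgg, the gamma chain of the same protein, had -0.05 ± 0.11. Fga came to -0.20 and Fgb to -0.17 without Control replicate 3. The higher one was Il1rn, the IL-1 receptor antagonist, with 6.20, 6.61 and 6.56 under TMAO, against 6.17, 5.47 and 5.32 in Control, a difference of 0.80 ± 0.22 (adjusted p of 0.619 in limma). Negative acute-phase proteins, which the liver makes less of in inflammation, had 13 of 16 lower means and a median of -0.10, and 0 at an unadjusted p under 0.05 in either direction. Alb differed by 0.02 ± 0.11 and Ttr, the thyroxine carrier, by -0.15 ± 0.17 (-0.0021 without TMAO replicate 1). The signs of Fgg and Alb turned with 1 array left out.

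IL-1 works beside IL-6 on acute-phase genes, and 4 of 30 genes of the IL-1 and NF-kB arm were higher at an unadjusted p under 0.05, where 3.01% of all genes were, with 0 lower and 0 past the adjusted threshold. Il1a had 4.27, 4.96 and 5.41 under TMAO, against 3.23, 3.80 and 4.10 in Control, with no overlap. The Control arrays were at or below about the level of the negative controls, so the difference of 1.17 ± 0.29 is uncertain in size. Irak3, which damps IL-1 receptor signalling, had 9.19, 9.04 and 9.38 under TMAO, against 8.71, 8.54 and 8.80 in Control, a difference of 0.52 ± 0.13 with an adjusted p of 0.573 in limma. The others were Il1rn and Il1b (0.48 ± 0.17). The median of the 30 genes was 0.02.

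Hepcidin is also driven by bone morphogenetic protein (BMP) and iron signals. Of 21 genes of that pathway 6 had lower means, with a median of 0.06. 0 passed the adjusted threshold, and 1 was higher and 1 lower at an unadjusted p under 0.05, again close to the shares over all genes. Bmp2, a BMP ligand, had a difference of 0.55 ± 0.22 (0.28 without TMAO replicate 3), and Smad7, the inhibitory SMAD, one of -0.47 ± 0.21. Id1, a standard BMP target, differed by 0.09 ± 0.12, Tfr2 by -0.03 ± 0.15 and Tmprss6, a protease that limits hepcidin, by 0.05 ± 0.12. Hjv and Bmp6 were dim, with differences of -0.47 ± 0.25 (-0.23 without TMAO replicate 2) and 0.16 ± 0.17, and the signs of Id1, Tfr2 and Bmp6 turned with 1 array left out. Of 18 genes of iron and haem handling 9 had lower means, and Lrp1, the receptor for haem-haemopexin complexes, had -0.20 ± 0.18 (-0.04 without TMAO replicate 3). Glucocorticoid receptor targets had 4 of 15 lower means and a median of 0.18. Sgk1 (0.27 ± 0.10) was the 1 member at an unadjusted p under 0.05, where 3.01% of all genes were higher. Tat had 0.31 ± 0.16 (0.16 without TMAO replicate 3).

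**Figure D4:**
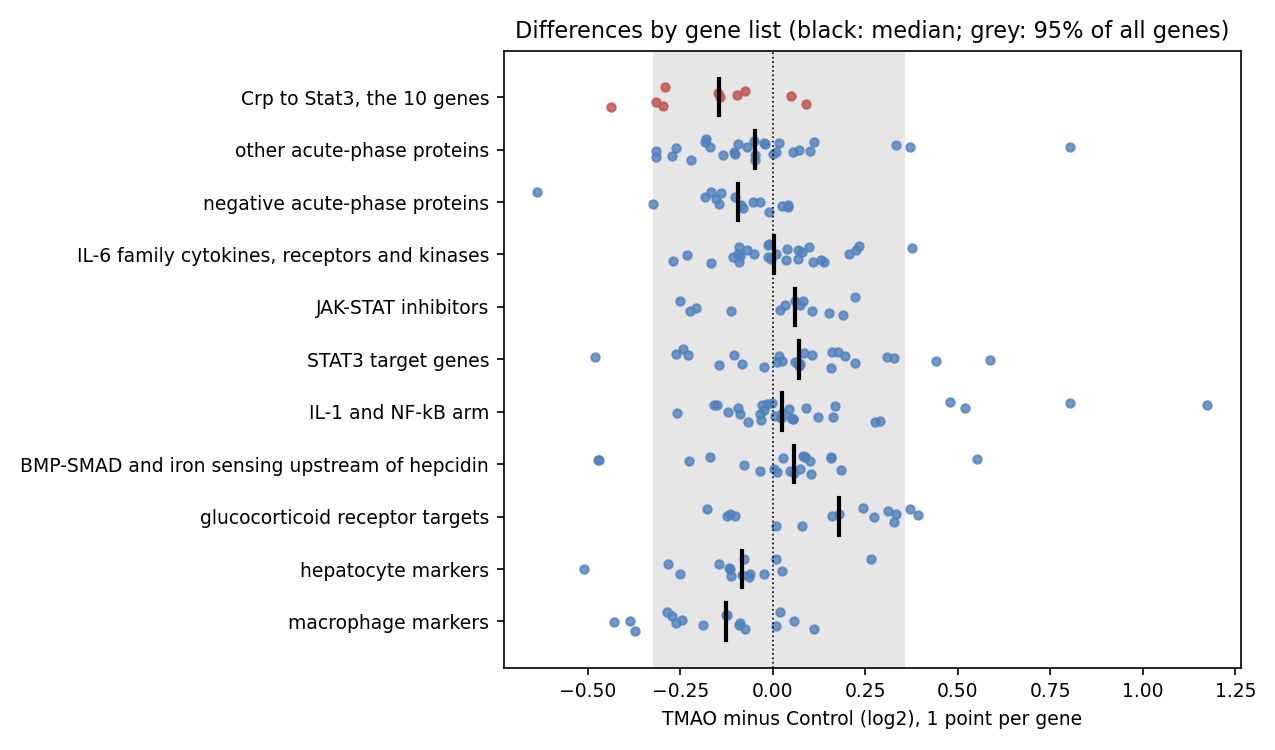
TMAO minus Control (x axis, log2) with 1 point per gene for the 10 genes and for 10 related lists, black lines for list medians and a grey band that holds 95% of all genes (-0.32 to 0.35). The medians are -0.15 for the 10 genes, -0.05 for other acute-phase proteins, 0.07 for STAT3 targets, 0.18 for glucocorticoid receptor targets and -0.13 for macrophage markers. Those of negative acute-phase proteins and hepatocyte markers are -0.10 and -0.08.

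Of 17 macrophage markers 13 had lower means, against 51% of all genes, with a median of -0.13, and 3 were lower at an unadjusted p under 0.05 (Cd163, Vsig4 and Mrc1), where 2.48% of all genes were. Endothelial markers had 11 of 14 lower means and a median of -0.10, with 1 lower at an unadjusted p under 0.05. The summed signal of the macrophage markers, in which bright markers weigh most, was 9.60 to 9.76 under TMAO and 9.79 to 10.00 in Control (log2). That of the endothelial markers overlapped, at 8.10 to 8.20 under TMAO and 8.04 to 8.39 in Control. The mean log2 signal of the macrophage markers overlapped as well, at 4.77 to 4.97 under TMAO and 4.92 to 5.21 in Control. 8 of the 17 macrophage markers, among them Clec4f, Adgre1, Csf1r and Vsig4, were close to the negative controls in both groups. Cd163, the haemoglobin-haptoglobin scavenger receptor, had 5.04, 4.74 and 4.82 under TMAO, against 5.18, 5.41 and 5.17 in Control, a difference of -0.39 ± 0.13. These signals were dim, like those of Socs3, so the size of this difference is uncertain too. The part of these cells in the Socs3, Crp and Apcs values was not tested. The neutrophil genes S100a8 and S100a9 were close to the negative controls on all arrays (2.82 to 3.08 under TMAO and 2.94 to 3.03 in Control for S100a8). Hepatocyte markers had 12 of 15 lower means and a median of -0.08.

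By its values over the 6 arrays, each set against the gene's own mean, Socs3 was most like Apoc2, an activator of lipoprotein lipase, with a root mean square difference of 0.076 log2 units. Aldh1b1, Tubb2a, Arrb2 and Rap2a followed (0.079 to 0.093), among 7519 genes with at least the median signal. Within the 10 genes the closest were Apcs (0.124) and Crp (0.130), and the farthest was Lcn2 (0.725).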

How the data were processed

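Each sample was hybridised to 1 Affymetrix array as biotinylated cRNA, per the labels' protocols. The authors deposited log2 signals, with how they corrected, normalized and summarised them not given in the sources used here. Limma is listed, with no role, in the submitters' processing notes. A further deposited table with 6 columns numbered without sample names was not used. Of 24871 probe sets 1683 were controls. The platform annotation names 1 gene for 15049 of the other 23188 and several for 0, and 8139 have no name here. The probe set with the highest mean stood for a gene, which left 15037 genes.

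Groups and replicate numbers came from sample titles. TMAO was compared with Control by limma 3.58.1 (R 4.3.3; lmFit and eBayes, group as the only term), two-sided, adjusted by Benjamini-Hochberg over all 15037 genes, with a threshold of 0.05. All p-values, adjusted or not, come from this fit, and SE and 95% intervals too. The number of arrays limits the precision. The 17 gene lists hold 337 entries, of which 300 were measured. The 10 genes and the lists were chosen with earlier results of these data known. Named genes are the 10, up to 4 per list by smallest p, pathway genes fixed by name, and the 5 most like Socs3, and not all are printed. Alternatives were other scalings, probe set rules, a signal filter, variance settings, a block for the replicate number and leaving out each array.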

Additional observations from a re-analysis of the deposited data

How the results depend on the processing

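0 of the 10 genes passed the adjusted threshold under the alternatives that tested them in limma, which were 14 for each gene except Socs3 and A2m (13, since both lie below the median signal). On the deposited scale and after quantile normalization 3 had an unadjusted p under 0.05. After median centring it was 2, with Crp at an unadjusted p of 0.0605 in limma. No scaling turned a sign. Over all genes the count of 4 was 9 among genes with at least the median signal, 30 with trend and robust estimation, 7 with array weights, and 0 with the replicate number as a block. With 1 array left out it ran from 0 to 2, and the 99 genes past 1.5-fold at an unadjusted p under 0.05 ran from 84 to 166. For the 10 genes, leaving out 1 array gave 5 to 9 lower means, 1 to 3 genes at an unadjusted p under 0.05 and medians of -0.31 to -0.04. Differences then ran from -0.44 to 0.23 for Orm1, -0.63 to 0.37 for Lcn2, -0.22 to 0.44 for Hamp and -0.24 to 0.030 for A2m, and their signs turned. Of 39 list genes given with values, 9 turned sign and 16 more shrank by over 1.5 times, among them Jak1, Jak2, Il6 and Tmprss6. With the replicate block, 2 of the 10 genes had an unadjusted p under 0.05, Socs3 (-0.44 ± 0.12) and Hp (-0.29 ± 0.11), with adjusted p of 0.820 and 0.895 in limma. The SE of Lcn2 was 0.11 with the block and 0.49 without. Over all genes, the correlations between deviations of same-numbered arrays were 0.13, 0.10 and -0.01, so the numbers were not taken as pairs. Arrays 1 and 2 of TMAO correlated best with their own number and array 3 did not. Dim signals limit Socs3, and the spread between arrays limits Lcn2, Hamp, Orm1 and Hp.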
